A study of Mus musculus with 6 samples.

Results

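The genes described here make, remove or sense adenosine: the ectoenzyme genes Entpd1, Entpd2, Enpp1 and Nt5e, the removal enzyme genes Ada and Adk, and the 4 adenosine receptor genes Adora1, Adora2a, Adora2b and Adora3. They were fixed by name, and each was represented by its brightest probe set that names no other gene. Of the 10 genes, 5 were measured in this way (Entpd1, Entpd2, Nt5e, Ada and Adk), out of 19938 genes named on the arrays, and all 5 were among the 14953 genes tested. Adora3 was named only on a probe set that also names Tmigd3, and Enpp1, Adora1, Adora2a and Adora2b were not analysed here. No value below concerns a receptor.

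Tumour RNA came from 3 mammary tumours of female FVB mice treated with DPM and 3 of mice treated with vehicle, and every animal carried the MMTV-PyMT transgene, in which a mammary tumour virus promoter drives the polyoma middle T oncogene in mammary epithelium. DPM is taken to be dipyridamole, from knowledge of the study, since the labels give only the abbreviation. It was injected intraperitoneally at 10 mg/kg for 5 days on and 2 days off, from 4 weeks of age for 11 weeks, and tumours were collected at 15 weeks. The arms held 10 and 7 mice, each array is labelled a biological replicate, and the samples were whole pieces of solid tumour in which stroma and leukocytes remain.

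Adenosine outside cells comes mostly from released ATP. Entpd1 (CD39) strips ATP and ADP to AMP, Entpd2 acts mainly on ATP, Enpp1 cleaves ATP directly to AMP, and Nt5e (CD73) turns AMP into adenosine. Cells take adenosine up through equilibrative nucleoside transporters, which dipyridamole blocks. Inside, adenosine kinase (Adk) returns it to AMP and adenosine deaminase (Ada) converts it to inosine, while Gs-coupled and Gi-coupled receptors at the cell surface raise or lower cyclic AMP. In tumours, CD39 and CD73 on stromal and immune cells are known for producing adenosine that restrains lymphocytes.

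The sequences just before the annotated starts of 3 of these genes are shown because Adk and Entpd2 were the genes whose DPM and vehicle values did not overlap and Nt5e was the gene with the opposite direction. They are the 250 bases upstream of each start in RefSeq's GRCm38.p6 table, written 5′ to 3′ on the gene's strand, and capitals mark the GC box GGGCGG or its reverse complement CCGCCC. Adk has 2 annotated starts, and all 4 windows lie on the plus strand, at chr14:21052324-21052573 and chr14:21075902-21076151 for Adk, chr2:25395624-25395873 for Entpd2 and chr9:88327359-88327608 for Nt5e.
Adk start 1: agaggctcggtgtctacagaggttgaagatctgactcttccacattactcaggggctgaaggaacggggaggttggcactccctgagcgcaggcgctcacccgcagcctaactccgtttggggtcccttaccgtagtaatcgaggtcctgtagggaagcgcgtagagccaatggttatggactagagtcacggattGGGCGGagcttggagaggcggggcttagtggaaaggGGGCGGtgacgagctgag
Adk start 2: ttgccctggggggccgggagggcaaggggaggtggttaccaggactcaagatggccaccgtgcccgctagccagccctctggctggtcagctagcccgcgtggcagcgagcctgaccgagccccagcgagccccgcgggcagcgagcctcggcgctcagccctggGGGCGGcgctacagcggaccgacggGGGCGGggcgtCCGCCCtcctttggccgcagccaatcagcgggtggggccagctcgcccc
Entpd2: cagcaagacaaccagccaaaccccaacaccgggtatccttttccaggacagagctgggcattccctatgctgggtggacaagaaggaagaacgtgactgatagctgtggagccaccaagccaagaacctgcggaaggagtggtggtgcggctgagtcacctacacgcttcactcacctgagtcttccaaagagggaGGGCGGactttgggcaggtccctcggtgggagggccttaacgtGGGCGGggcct
Nt5e: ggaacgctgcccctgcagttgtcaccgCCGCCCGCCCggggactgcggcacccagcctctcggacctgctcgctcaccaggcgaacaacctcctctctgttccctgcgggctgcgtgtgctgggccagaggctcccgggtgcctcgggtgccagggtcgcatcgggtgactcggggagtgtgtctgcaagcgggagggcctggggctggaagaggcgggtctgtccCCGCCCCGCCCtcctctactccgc
The table held 7 such windows for the 5 measured genes, with G and C making up 47.2% to 75.2% of the bases. The GC box was found on either strand in 5 of the 7, including 4 matches before Nt5e, 3 before the second Adk start, 2 each before the first Adk start and Entpd2, and 1 before Ada, but not before either start of Entpd1. Over all 32851 windows of this length, 32.7% held it. A hypoxia response core (ACGTG or GCGTG, either strand) was found in 4 of the 7 windows, against 38.6% of all windows. There were 3 matches before Entpd2 and 1 each before Nt5e, the first Entpd1 start and the second Adk start. The cyclic AMP response element TGACGTCA was found in 0 of the 7 windows and in 1.55% of all windows. Its core TGACG, which the full element contains, was found in 3 of the 7 and in 17.8% of all windows. Of these 3, 2 were the Entpd1 windows and 1 was the first Adk start. These are matches of letters only.

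The comparison asks whether tumours grown under the drug differed from tumours grown under vehicle in RNA for the enzymes on either side of adenosine. In DPM tumours the mean levels of Entpd1, Entpd2, Ada and Adk were higher and that of Nt5e was lower. The differences ran from -0.46 to 0.44 on the log2 scale, or 0.729 to 1.35 times the vehicle level. None passed the test: limma called 0 of the 14953 genes at an adjusted p below 0.05 (0%), and the adjusted p of each of the 5 rounded to 1. At an unadjusted p below 0.05 there were 2 of the 5, Adk and Entpd1, against 578 of all genes (3.87%). The median difference of the 5 was 0.29 log2 beside 0.00055 over all genes tested, and 4 of 5 had the higher mean in DPM beside 50.3% of all genes.

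Depth on arrays is set by their number, here 3 per group, and the deposited medians of 270 to 301 and upper quartiles of 717 to 887 describe how alike the arrays were. The brightest upper quartiles belonged to both arrays numbered 3. Values below are log2 of the deposited intensity after quantile normalisation, each with the SD over 3 arrays, and a difference is DPM minus vehicle. Levels of different genes are not set against each other, since probe sets differ in response. No detection calls were used, so no gene is called absent. In whole tumour, fewer cells of a type and less RNA per cell cannot be told apart.

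The tumours carried their labelled tissue's markers. All 7 luminal markers listed (Krt8, Krt18, Krt19, Epcam, Cdh1, Elf5 and Gata3) passed the filter on low values, with mean levels of 11.09 for Krt19 to 13.47 for Krt8 in DPM tumours. The keratin gene Krt8 averaged 13.47 ± 0.04 in DPM and 13.56 ± 0.21 in vehicle tumours (SD, n = 3 each). Luminal scores, averages of the listed genes' log2 values after each was centred across the 6 arrays, ran from -0.141 to 0.101 in DPM and from -0.0926 to 0.0921 in vehicle tumours.

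**Figure D1:**
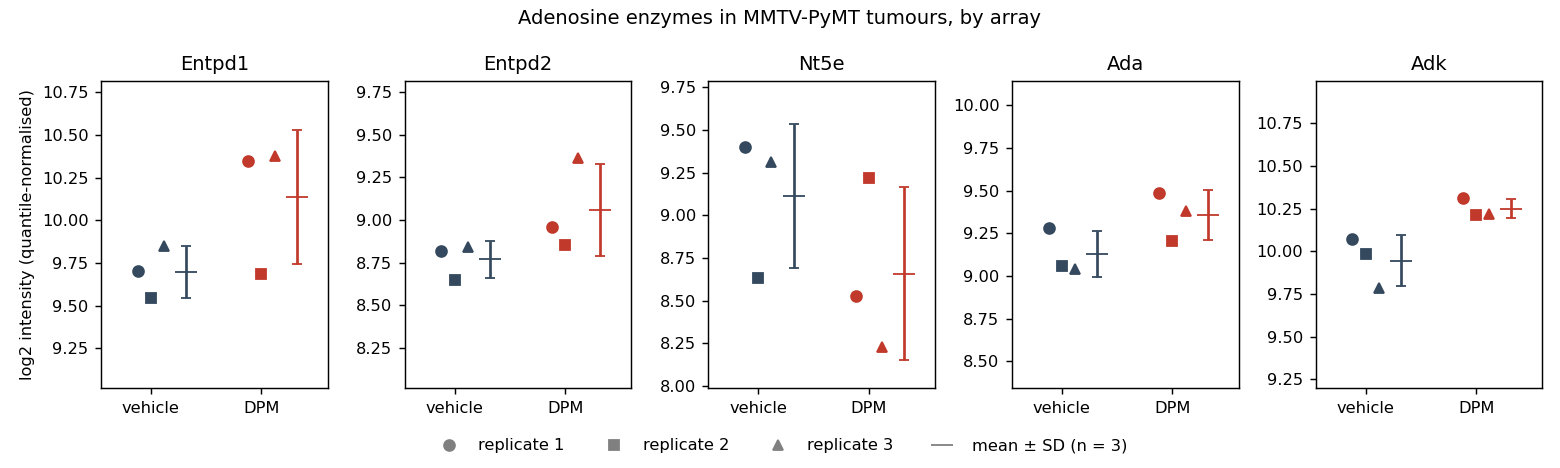
Each panel plots the quantile-normalised log2 intensity of a measured adenosine enzyme gene (vertical axis, with the same span in every panel) by treatment, with symbols for the replicate number and a bar for the mean ± SD of 3 arrays. Adk and Entpd2 show no overlap between groups, with Entpd2 separated by the small gap from 8.84 to 8.85, whereas DPM replicate 2 lies among the vehicle values for Entpd1, Nt5e and Ada.

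Entpd1 (probe set 10463070), the ectoenzyme that starts the breakdown of ATP on leukocytes and endothelium, read 10.34, 9.68 and 10.38 under DPM (replicates 1 to 3) and 9.70, 9.54 and 9.85 under vehicle. The deposited intensities behind these were 1191, 789 and 1496 under DPM and 802, 690 and 1055 under vehicle. DPM replicates 1 and 3 were the highest of the 6 arrays, and DPM replicate 2 lay below 2 of the 3 vehicle arrays. The means were 10.14 ± 0.39 and 9.70 ± 0.15 (SD, n = 3 each), a difference of 0.44 log2 (SE 0.19) with a 95% interval from 0.0016 to 0.87, unadjusted p = 0.0493 and limma adjusted p = 1. Leaving out DPM replicate 2 gave a difference of 0.66, and without DPM replicate 3 it was 0.32.

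Cells that carry CD39 were followed through their markers. Endothelial scores were 0.223, 0.0232 and -0.0955 under DPM and 0.0718, -0.136 and -0.0866 under vehicle, with 5 of 6 markers higher under DPM and 0 of 6 called. Macrophage scores were 0.224, -0.174 and -0.315 under DPM and -0.0540, 0.0706 and 0.249 under vehicle, with 7 of 7 markers lower. DPM replicate 3, the array with the highest Entpd1, had the lowest macrophage score of all and the lowest endothelial score of the DPM group. The part of either cell type in the Entpd1 values was not tested.

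Entpd2 (probe set 10470014), the ectoenzyme that acts mainly on ATP, read 8.96, 8.85 and 9.37 under DPM and 8.82, 8.65 and 8.84 under vehicle. The groups did not overlap, but the lowest DPM array and the highest vehicle array were nearly level. The means were 9.06 ± 0.27 and 8.77 ± 0.11 (SD, n = 3 each), a difference of 0.29 (SE 0.14) with a 95% interval from -0.04 to 0.62 and limma adjusted p = 1. DPM replicate 3 stood above the rest, and without it the difference was 0.14. With median centring or with no normalisation between arrays the groups overlapped.

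Nt5e (probe set 10587639), the enzyme that releases adenosine from AMP, read 8.53, 9.22 and 8.23 under DPM and 9.40, 8.63 and 9.31 under vehicle. Both groups were split: DPM replicate 2 stood with vehicle replicates 1 and 3, and vehicle replicate 2 stood with DPM replicates 1 and 3. The means were 8.66 ± 0.51 and 9.11 ± 0.42 (SD, n = 3 each), a difference of -0.46 (SE 0.28), or 0.729 times the vehicle level, with a 95% interval from -1.11 to 0.20 and limma adjusted p = 1. The range of 1.17 log2 units over the 6 arrays was wider than that of 97.4% of the genes tested, and Entpd1, at 0.83, exceeded 93.1%. Without both arrays numbered 3 the Nt5e difference was -0.14, and without DPM replicate 2 it was -0.74.

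Stromal and basal markers were set beside Nt5e because CD73 is carried by mesenchymal cells as well as by lymphocytes and epithelium. Fibroblast scores were 0.229, 0.0632 and -0.762 under DPM and 0.0623, 0.302 and 0.105 under vehicle, with 6 of 6 markers lower and 0 called. The lowest fibroblast score and the lowest Nt5e value fell on the same array, DPM replicate 3, but DPM replicate 1 had a low Nt5e value and a fibroblast score above 2 of the vehicle arrays. Basal epithelial scores did not overlap, at -0.0559, -0.469 and -0.0939 under DPM and 0.0985, 0.367 and 0.153 under vehicle. The mean was lower for 6 of 6 markers and 0 were called, with Myh11 differing by only -0.0036 log2. The basal keratin gene Krt14 had a mean of 10.03 ± 0.29 under DPM and of 10.81 ± 0.15 under vehicle (SD, n = 3 each, limma adjusted p = 0.867). DPM replicate 2, with the lowest basal score, had the highest Nt5e value of the DPM arrays. The part of these cell types in the Nt5e values was not tested.

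Over the 6 arrays the removal enzymes had narrower ranges than the ectoenzymes, at 0.53 log2 for Adk and 0.45 for Ada. These were still wider than the ranges of 78.3% and 68.2% of the genes tested. Among vehicle arrays alone, the SD was smallest for Entpd2, at 0.11. Adk (probe set 10413086), the kinase that returns adenosine to AMP, read 10.32, 10.22 and 10.22 under DPM and 10.07, 9.98 and 9.78 under vehicle. Every DPM array was above every vehicle array, and the DPM arrays lay within 0.10 log2 units of each other. The means were 10.25 ± 0.06 and 9.95 ± 0.15 (SD, n = 3 each), a difference of 0.30 (SE 0.10), or 1.23 times the vehicle level, with a 95% interval from 0.08 to 0.53. Its unadjusted p of 0.0154 ranked 204th of the 14953 genes, and its limma adjusted p was 1. Left out in turn, the 6 arrays gave Adk differences of 0.22 to 0.37.

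Ada (probe set 10489391), the deaminase that turns adenosine into inosine, read 9.49, 9.20 and 9.38 under DPM and 9.28, 9.06 and 9.04 under vehicle. DPM replicate 2 fell below vehicle replicate 1, so that the groups overlapped. The means were 9.36 ± 0.14 and 9.13 ± 0.13 (SD, n = 3 each), a difference of 0.23 (SE 0.11) with a 95% interval from -0.03 to 0.49 and limma adjusted p = 1. T cell markers, from a cell type rich in Ada, were lower in DPM tumours for 4 of 4 markers measured. Their scores did not overlap, at -0.0670 to -0.0365 under DPM and 0.00414 to 0.0788 under vehicle. The differences were small, from -0.16 log2 for Cd4 to -0.05 for Cd8a. Of the 4 markers, Cd4, Cd8a and Foxp3 had low deposited intensities, from 144 to 260, below the median of every array. None of these 4 was called, and 3 of the 7 T cell markers listed, Cd3d, Cd3g and Lck, were not among the genes tested. The part of T cells in the Ada values was not tested.

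Counted over the 5 genes, the groups lay wholly apart for 2, Adk and Entpd2, both higher in DPM, where 1042 of 14953 genes were apart (6.97%), 522 of them higher in DPM (3.49%). In a two-sided exact permutation test p was 0.1 for Adk and Entpd2, the smallest that 3 against 3 arrays can give, 0.2 for Nt5e and Ada, and 0.3 for Entpd1. For all 5 genes, DPM replicate 2 was the DPM array nearest to the vehicle mean. For Adk it was nearly level with DPM replicate 3 (10.2152 against 10.2207). Over all genes tested DPM replicate 2 was the nearest for 37.5%, DPM replicate 1 for 35.8% and DPM replicate 3 for 26.7%. Without DPM replicate 2 the groups were apart for 5 of 5, each in the direction given above, where 14.8% of all genes were then apart. That array was singled out on the values of these same 5 genes, so the count lends no support to a difference. The share over all genes is not a like background for it. With median centring, and with no normalisation between arrays, Adk alone was apart, against 5.19% and 3.81% of all genes.

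**Figure D2:**
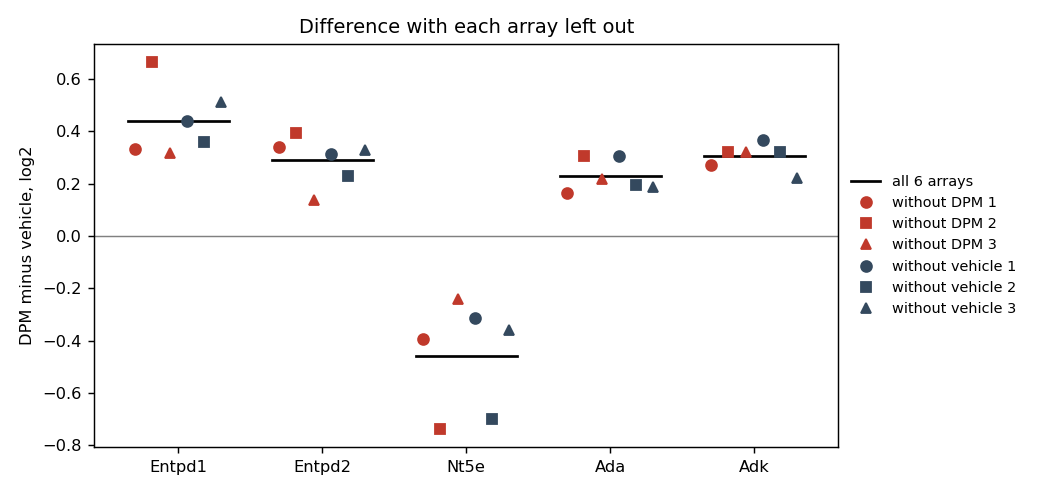
The vertical axis gives the DPM minus vehicle difference (log2) of each measured gene, with a black line for all 6 arrays and a symbol for the value with 1 array left out (colour for its group, shape for its replicate number). No symbol crosses 0: Nt5e moves between -0.74 and -0.24, whereas Adk stays between 0.22 and 0.37.

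Ratios within an array set an enzyme that makes adenosine beside those that remove it, and only their difference between groups is read. The log2 ratio of Nt5e to Ada was -0.96, 0.014 and -1.15 under DPM and 0.12, -0.43 and 0.27 under vehicle. It was lower on average in DPM tumours by a log2 difference of -0.69, or 0.621 times the vehicle ratio, and the groups overlapped (two-sided exact permutation p = 0.2, adjusted p = 0.4 over 4 ratios). Nt5e to Adk read -1.79, -0.999 and -1.99 under DPM and -0.67, -1.35 and -0.47 under vehicle, a difference of -0.76 (exact permutation p = 0.2, adjusted p = 0.4). Entpd1 to Nt5e, the successive steps of the ectoenzyme pathway, read 1.82, 0.47 and 2.15 under DPM and 0.30, 0.91 and 0.53 under vehicle, a difference of 0.89 (exact permutation p = 0.3, adjusted p = 0.4). DPM replicate 2 lay within the vehicle range in all 3 of these ratios.

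Ada and Adk, the alternative routes of removal, gave the ratio with the smallest difference of the 4. Its log2 values were -0.83, -1.01 and -0.84 under DPM and -0.79, -0.92 and -0.74 under vehicle, with means of -0.89 ± 0.10 and -0.82 ± 0.09 (SD, n = 3 each) and a difference of -0.07 (exact permutation p = 0.5, adjusted p = 0.5). The difference between groups was smaller than the spread within either.

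**Figure D3:**
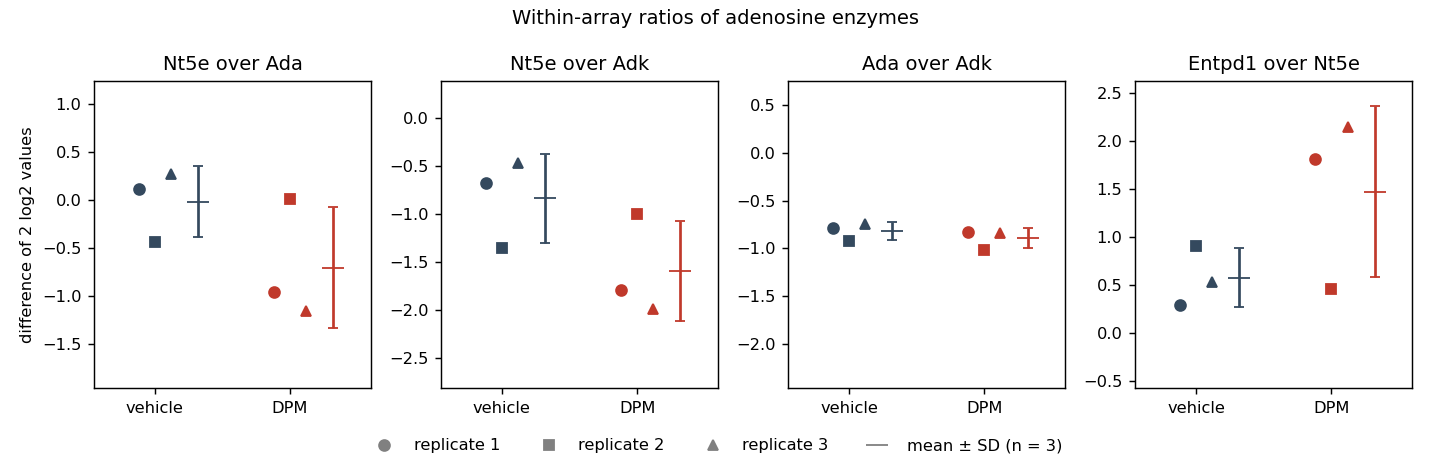
Each panel plots the difference between the log2 values of a pair of genes on the same array (vertical axis, with the same span in every panel) by treatment, with symbols for replicate number and bars for the mean ± SD of 3 arrays. The Ada over Adk values sit together between -1.01 and -0.74, whereas the 3 ratios that contain Nt5e spread widely and overlap between groups.

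Genes that followed the profile of Nt5e or Entpd1 most closely over the 6 arrays were found by the smallest root mean square difference between profiles centred on their own means. For Nt5e these were Lbh (0.160 log2), Shc4 (0.183) and Slc16a6 (0.188). Lbh, a transcriptional cofactor gene, read 8.93, 9.37 and 8.79 under DPM and 9.51, 9.09 and 9.69 under vehicle, with the same highest and lowest DPM arrays as Nt5e. For Entpd1 they were Klhdc7a (0.111), Hsd17b2 (0.112) and Gpam (0.114). Gpam, which starts triglyceride synthesis, read 9.72, 9.33 and 9.89 under DPM and 9.44, 9.05 and 9.40 under vehicle. Likeness over 6 arrays describes these libraries only.

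Other genes of purine handling were counted from 6 lists with 53 genes, of which 40 were tested. Means were higher in DPM tumours for 25 and lower for 15, with a median difference of 0.04 log2, and limma called 0 of the 40. An unadjusted p below 0.05 was found for 4 of the 40, beside 3.87% of all genes. The groups were apart for 5 of the 40, 4 higher and 1 lower, beside 6.97% of all genes. By list, the mean was higher for 3 of 5 other ectonucleotidases and phosphatases, 5 of 6 relatives of the Entpd and Enpp families, 3 of 5 intracellular 5'-nucleotidases, 4 of 10 other adenosine and AMP enzymes, 3 of 4 genes of deaminase anchoring or ATP release, and 7 of 10 P2 nucleotide receptors.

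Among ectoenzymes, Enpp3, which hydrolyses extracellular nucleotides, read 12.32, 12.33 and 12.30 under DPM and 12.03, 12.08 and 11.95 under vehicle. After quantile normalisation the groups were well separated and the DPM arrays nearly equal. The deposited intensities were 4598, 5120 and 5681 under DPM and 3956, 3988 and 4523 under vehicle, apart by a small gap. Its unadjusted limma p went from 0.00358 to 0.0145 with median centring and 0.0587 with no normalisation between arrays. The difference was 0.30 (SE 0.07, limma adjusted p = 0.949). Entpd3, a relative of Entpd1, differed by 0.28 (SE 0.15) with overlapping groups. Enpp5 and Entpd6, with other substrates or sites, differed by 0.21 (SE 0.13) and 0.11 (SE 0.10).

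Nt5c, a cytosolic nucleotidase that removes phosphate from nucleoside monophosphates, had the lower level in DPM tumours. It read 10.13, 10.32 and 10.37 under DPM and 11.32, 10.42 and 11.17 under vehicle. After quantile normalisation vehicle replicate 2 lay just above the DPM arrays, and the other vehicle arrays far above them. In deposited intensities the groups overlapped, with vehicle replicate 2 at 1234 and DPM replicates 2 and 3 at 1236 and 1493. The difference was -0.69 (SE 0.22, limma adjusted p = 1). With each array left out in turn it ranged from -0.97, without vehicle replicate 2, to -0.52, without vehicle replicate 1. Nt5c2, which prefers inosine and guanosine monophosphates, differed by 0.18 (SE 0.11). The adenylate kinase genes Ak3 and Ak1 differed by 0.23 (SE 0.12) and -0.18 (SE 0.11).

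Dpp4, the surface peptidase CD26 that anchors adenosine deaminase outside human cells, read 9.46, 9.14 and 9.03 under DPM and 8.96, 8.43 and 8.55 under vehicle. The groups did not overlap, with vehicle replicate 1 close to DPM replicate 3. The difference was 0.56 (SE 0.17, limma adjusted p = 1). P2rx4, an ATP-gated channel, read 11.48, 11.57 and 11.62 under DPM and 11.30, 11.01 and 11.31 under vehicle. These normalised values did not overlap either, a difference of 0.35 (SE 0.10, limma adjusted p = 1). In deposited intensities the groups overlapped, with vehicle replicate 3 at 2912 and DPM replicate 1 at 2605. Its unadjusted limma p went from 0.00942 to 0.0518 with median centring and 0.0977 with no normalisation between arrays. P2ry13, an ADP receptor, differed by -0.19 (SE 0.10), and Panx2, a pannexin, by 0.03 (SE 0.12), a sign that changed in 4 of 18 other settings.

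**Figure D4:**
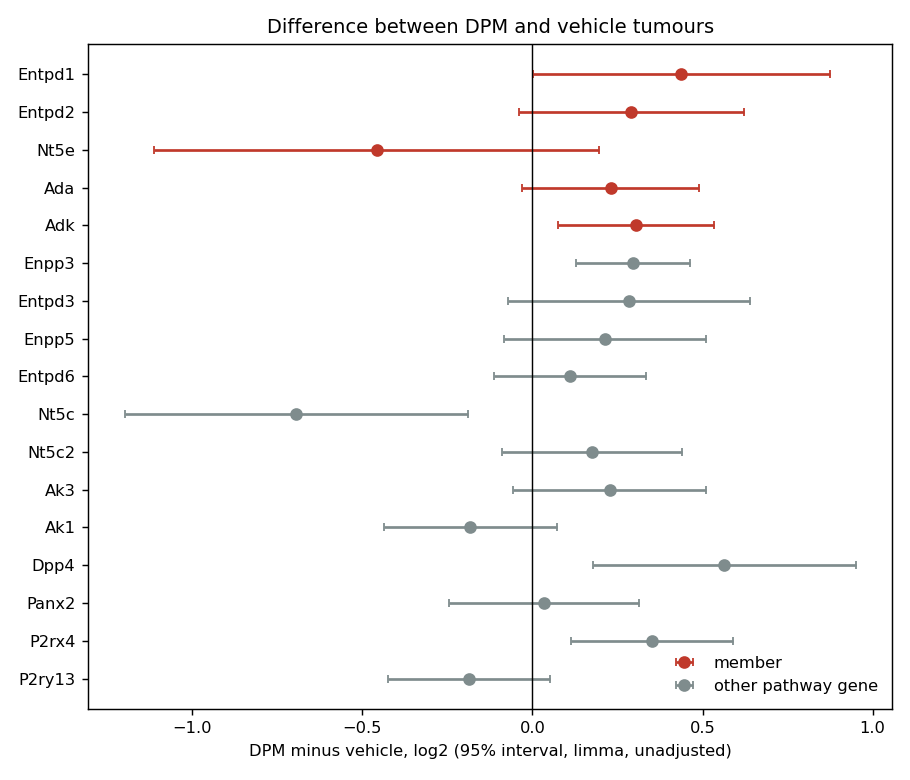
Points give the DPM minus vehicle difference (horizontal axis, log2) with its 95% limma interval, unadjusted for the number of genes, for the 5 measured adenosine enzymes (red) and 12 other purine genes (grey), the 2 with the smallest p in each of 6 lists. Adk and Entpd1 are the measured enzymes whose intervals lie above 0, that of Entpd1 starting at 0.0016, and Nt5e has the widest interval of the 5, from -1.11 to 0.20.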

How the data were processed

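RNA (100 ng) from 3 DPM and 3 vehicle tumours was labelled with biotin for 1-colour Affymetrix arrays, per the labels' protocols. The deposited table holds 1 linear, whole-number intensity per array for each of 35556 probe sets. Its background correction, summarisation, scaling and genome build were not given in the sources used here. After a floor of 1, log2 values were quantile-normalised. GEO's platform annotation named 1 gene for 21789 probe sets, several for 1621 (left out) and did not list 12146, which are unnamed here. Symbols followed the Entrez identifier, and 1 listed gene was sought under its former name, Acpp. The brightest probe set stood for each of 19938 genes, and 4985 with means below the 25th percentile were left out. The test was limma 3.58.1 (R 4.3.3; intensity trend, two-sided, Benjamini-Hochberg over 14953 genes), tested on simulated data. Ratios had exact permutation tests.

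Every listed adenosine gene is named whatever its value. From each other list the 2 genes with the smallest p are named, with the 3 profiles closest to the widest-ranging pair. Genes, lists and markers were chosen with earlier results of these data known. Alternatives covered filters, normalisation, probe set choice, moderation, array weights, an offset of 16, a replicate block and omitted arrays. The labels call the replicates biological without saying whether each tumour came from a different mouse. The p-values therefore set group differences against the spread between these samples, which limma moderates across genes. No array was a duplicate, the closest pair differing by a root mean square of 0.217 log2.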

Additional observations from a re-analysis of the deposited data

How the results depend on the processing

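No gene was called under any of the 18 other settings run, with a smallest limma adjusted p of 0.184, found without vehicle replicate 2, and 316 to 753 genes at an unadjusted p below 0.05. The differences of Entpd1, Entpd2, Nt5e, Ada and Adk kept their sign in all 18, and the 4 ratios in all 11 run for them. With each array left out in turn, Entpd1 ranged from 0.32 to 0.66, Entpd2 from 0.14 to 0.39, Nt5e from -0.74 to -0.24, Ada from 0.16 to 0.31 and Adk from 0.22 to 0.37. The ratio Nt5e to Ada ranged from -1.04 to -0.46, Nt5e to Adk from -1.06 to -0.56, Entpd1 to Nt5e from 0.56 to 1.40 and Ada to Adk from -0.13 to -0.01. Without both arrays numbered 3 the ratios containing Nt5e differed less. Nt5e to Ada was then -0.32, Nt5e to Adk -0.38, Entpd1 to Nt5e 0.54 and Ada to Adk -0.06. The count of measured adenosine genes whose groups were apart was 2. It was 1 with median centring and 1 with no between-array normalisation. It was 2 to 5 with an array left out, where 13.8% to 17.9% of all genes were apart against 6.97% with all arrays. Leaving out an array can only keep or raise these counts, since groups already apart stay apart. A rise in the count by itself therefore lends no support to a difference. Panx2 changed sign to -0.0151 with array weights, -0.0591 without both arrays numbered 3, and, with 1 array left out, ranged from -0.0328 to 0.123; its interval spans 0, and the cause was not tested. Replicate numbers are shared by the groups, but same-numbered arrays deviated with correlations of -0.12, 0.11 and 0.37, so the numbers were not taken to pair the tumours. Arrays with different numbers gave -0.32 to 0.22, so the 0.37 of the arrays numbered 3 was the largest. An effect shared by the arrays numbered 3 was not tested. With the replicate block, 0 genes were called (723 at an unadjusted p below 0.05), and the fitted differences cannot move in this balanced design (Adk 0.30, limma adjusted p = 0.84). Unadjusted limma p-values did: Entpd1 went from 0.0493 to 0.0121, Ada from 0.0756 to 0.0421, Entpd2 from 0.0776 to 0.0385, Adk from 0.0154 to 0.0143 and Nt5e from 0.146 to 0.214. The 3 arrays per group limit every value: the 95% interval of Nt5e reached 0.65 log2 to either side.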

Other observations

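Genes known to respond to cyclic AMP, the messenger that some adenosine receptors raise, were counted from a list of 12, of which 10 were tested. Means were higher in DPM tumours for 5 and lower for 5, with a median difference near 0 (-0.00088 log2), and limma called 0. Beside 3.87% of all genes, 1 of the 10 had an unadjusted p below 0.05. That gene was Per1, a clock gene, which read 10.97, 11.26 and 11.10 under DPM and 10.83, 9.96 and 10.71 under vehicle, a difference of 0.61 (SE 0.22, limma adjusted p = 1). Without vehicle replicate 2, its lowest array, the Per1 difference was 0.34. Ppargc1a, a coactivator of mitochondrial genes, differed by -0.37 (SE 0.20). The list's scores were -0.0369, 0.187 and -0.141 under DPM and 0.211, -0.385 and 0.165 under vehicle. DPM replicate 2 and vehicle replicates 1 and 3 were highest, the same 3 arrays that read highest for Nt5e. A link between these scores and Nt5e was not tested.

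Hypoxia genes, included because hypoxia-inducible factor is known to induce Nt5e, had the higher mean in DPM for 6 of 10 tested, and limma called 0. Beside 3.87% of all genes, 1 of the 10 had an unadjusted p below 0.05. Ndrg1, a hypoxia and differentiation gene, averaged 12.13 ± 0.27 and 11.75 ± 0.21 (SD, n = 3 each), the difference being 0.38 (SE 0.16, limma adjusted p = 1) with overlapping groups. Vegfa, the angiogenic growth factor gene, differed by 0.23 (SE 0.19). Hypoxia scores were 0.108, -0.161 and 0.119 under DPM and -0.00368, 0.00799 and -0.0710 under vehicle. DPM replicates 1 and 3, which read lowest for Nt5e, had the highest hypoxia scores. The part of hypoxia in the Nt5e values was not tested.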
